A study of Homo sapiens with 6 samples.

Results

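NRF2 antioxidant genes were followed in HN12, an established human line of squamous carcinoma from the head and neck, after 24 h with CPI-613, against cells given DMSO, the solvent control. CPI-613, also called devimistat, resembles lipoic acid and targets the mitochondrial pyruvate and 2-oxoglutarate dehydrogenase complexes, and its dose is not given in the sources used here. RNA was sequenced from 3 libraries per group, called CPI-613 and Control below, all of the same cell line with no other allele or agent named in the labels. The 9 genes were chosen by name, with earlier results of these data known. They are the transcription factor NFE2L2, its inhibitor KEAP1 and 7 known targets, NQO1, HMOX1, TXNRD1, SRXN1, AKR1C1, AKR1B10 and OSGIN1. All 9 were found among 16327 genes with usable counts, and 8 passed the filter on low counts that kept 12671 genes for testing. The labels do not tell whether the 3 replicates come from independent cultures, so p-values cover just the variation among these libraries, possibly technical. In bulk RNA, fewer cells with a transcript and less transcript per cell cannot be told apart.

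NRF2, the protein of NFE2L2, is a basic leucine zipper factor that KEAP1 holds in the cytoplasm and hands to a CUL3 ubiquitin ligase for degradation. Oxidants and electrophiles modify cysteines of KEAP1, NRF2 then accumulates without needing more of its own mRNA, pairs with a small MAF protein and binds antioxidant response elements near its targets. In squamous carcinomas of the head and neck this pathway is known for activating mutations and for resistance to oxidative and drug stress.

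Genes were tested with edgeR's quasi-likelihood test, whose p-values, adjusted over all genes by Benjamini and Hochberg's method, are called edgeR adjusted p here. AKR1C1 was the one member of 8 tested that passed. The summed level of AKR1C1, AKR1C2 and AKR1C3 overlapped between the groups, and within that sum AKR1C3 lay lower with CPI-613. NQO1, TXNRD1, HMOX1, OSGIN1 and SRXN1 had mean levels higher with CPI-613 and did not pass. NFE2L2 and KEAP1 had means close to Control. AKR1B10, with 2, 1 and 2 counts with CPI-613 and 9, 6 and 13 counts in Control, fell below the filter on low counts. It is therefore not among the 8 tested members counted here. Among all genes tested, 1.94% were called higher and 1.24% lower. By edgeR, an unadjusted p under 0.05 was reached by 5 members on the higher side and by 0 on the lower, against 8.45% and 5.93% of all genes. DESeq2 and limma-voom each called 1 member, where they called 7.05% and 3.27% of all genes in either direction. The median log2 fold change of the 8 tested members was 0.85, against 0.02 over all tested genes, and 7 of the 8 estimates were above 0, against 6565 of 12671.

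Library totals were 13458518 to 15486514 counts with CPI-613 and 11531949 to 12508548 counts in Control. Within a group, low-GC and high-GC genes deviated in opposite directions. For the fifth of genes with the lowest GC content, under 41.1%, the median deviation from the group mean on the log2 scale was 0.84 in CPI-613 replicate 1 and -0.91 in CPI-613 replicate 3, and -0.35 in Control replicate 2. In the fifth with the highest GC content, over 58.8%, it was -0.42 in CPI-613 replicate 1 and 0.42 in CPI-613 replicate 3. A second set of values, called GC- and length-adjusted, had such trends taken out library by library. That adjustment also takes away any difference between the groups that follows GC content or length. Squamous markers (KRT5, KRT14, KRT6A, KRT17, TP63, SFN, DSG3, CDH1) summed to 4012 to 10760 CPM with CPI-613 and 6886 to 9957 CPM in Control. Endothelial markers summed to at most 0.542 CPM with CPI-613 and 2.51 CPM in Control, and the leukocyte marker PTPRC was at or below 0.155 CPM in every library. The leukocyte list as a whole (3 of 4 genes in the table) summed to 39.9 to 81.2 CPM with CPI-613 and 59.6 to 90.7 CPM in Control, nearly all from CD68 and CD14, and the fibroblast list (3 of 5) to 31.0 to 41.4 CPM with CPI-613 and 35.6 to 41.6 CPM in Control, nearly all from COL1A1. CD14 fell by 3.32 on the log2 scale (edgeR adjusted p = 0.025). Their part in the results was not tested.

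Levels between genes were compared per length, in FPKM of the authors' deposited gene table. With CPI-613 the mean FPKM ran from TXNRD1 (120.4) through KEAP1 (61.0), NQO1 (55.1), SRXN1 (29.6), NFE2L2 (24.8), OSGIN1 (11.7), HMOX1 (10.9) and AKR1C1 (2.49) to AKR1B10 (0.090). In Control the order was TXNRD1 (75.2), KEAP1 (68.0), NQO1 (34.2), NFE2L2 (27.2), SRXN1 (22.4), OSGIN1 (7.24), HMOX1 (7.16), AKR1C1 (0.940) and AKR1B10 (0.560). The one change of order was between SRXN1 and NFE2L2, whose ranges overlapped in both groups. The ranges of neighbours in this order also overlapped between TXNRD1 and KEAP1 and between OSGIN1 and HMOX1 in both groups, between KEAP1 and NQO1 and between NFE2L2 and OSGIN1 with CPI-613, and between NQO1 and NFE2L2 and between AKR1C1 and AKR1B10 in Control. TXNRD1 stood above 95.6% of the genes in that table with CPI-613 and above 92.5% in Control, whereas HMOX1, the textbook marker of oxidative stress, stood above 63.5% with CPI-613 and 53.5% in Control.

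**Figure D1:**
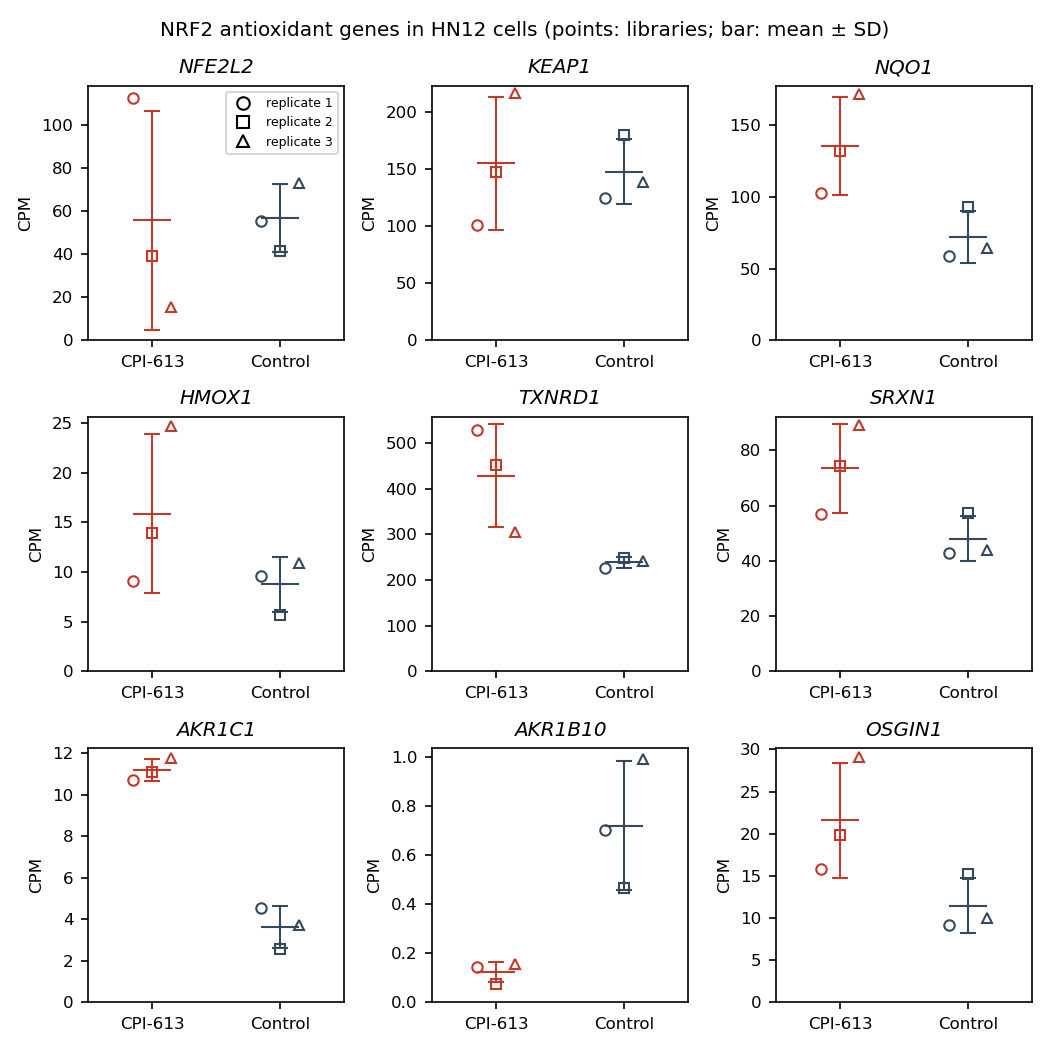
CPM of the 9 members in each library (vertical axes from 0, in CPM), with CPI-613 left and Control right in each panel; open symbols are libraries and the bar is the mean ± SD of 3. The groups did not overlap in NQO1, TXNRD1, AKR1C1, OSGIN1 (higher with CPI-613) and AKR1B10 (lower), and NFE2L2 with CPI-613 had the widest spread relative to its mean, from 15.5 to 112.8 CPM.

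NFE2L2 (gene ID 4780, chromosome 2 at 177230303 to 177264727, GRCh38) had 112.8, 39.1 and 15.5 CPM in CPI-613 replicates 1 to 3, against 55.5, 41.6 and 73.2 CPM in Control replicates 1 to 3. CPM are estimated counts scaled to a common library size, here after TMM normalisation. The CPI-613 libraries lay on both sides of the Control libraries and spanned far more than they did. NFE2L2 averaged 55.8 ± 50.8 CPM with CPI-613 and 56.8 ± 15.9 CPM in Control (SD, n = 3 each), a log2 fold change of -0.03 (SE 0.64; edgeR adjusted p = 0.992). The GC- and length-adjusted values, 103.6, 37.4 and 18.8 CPM with CPI-613 against 53.6, 42.8 and 69.2 CPM in Control, kept this spread, and the difference stayed small beside its SE of 0.54. Without 1 library the estimate moved as far as -1.05 when CPI-613 replicate 1 was left out and to 0.42 when it was replicate 3. Of the 7 RefSeq transcripts of NFE2L2 in the table, NM_006164 took 84.7% to 92.4% of the estimated counts with CPI-613 and 83.4% to 93.8% in Control.

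KEAP1 (gene ID 9817, chromosome 19 at 10486125 to 10503356) had 100.8, 147.4 and 216.3 CPM with CPI-613 and 124.4, 179.2 and 138.8 CPM in Control. Again the CPI-613 libraries enclosed the Control range, in the opposite order to NFE2L2, with replicate 3 highest. Its log2 fold change was 0.07 (SE 0.30; edgeR adjusted p = 0.938), turning to -0.05 with upper quartile scaling, -0.16 with library size only and -0.10 (SE 0.14) when GC- and length-adjusted. The adjusted values were 124.9, 141.2 and 161.2 CPM with CPI-613 and 135.7, 167.3 and 154.1 CPM in Control. Estimated counts of KEAP1 were split mainly between NM_012289, with 47.6% to 61.1% in CPI-613 libraries and 41.8% to 51.8% in Control libraries, and NM_203500, with 33.1% to 47.2% in CPI-613 libraries and 45.1% to 54.0% in Control libraries.

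Promoter windows from RefSeq (GRCh38.p14, 250 bases before to 50 bases after a transcription start) were searched on both strands for TGACNNNGC, the core of the antioxidant response element. The windows of all genes held this core in 13.3% of 35116 cases. Of 10 windows found for 7 members (NFE2L2, KEAP1, NQO1, TXNRD1, SRXN1, AKR1C1 and OSGIN1), 3 held it, 1 of 2 for KEAP1 and 2 of 2 for TXNRD1. A match describes letters in this window and not a bound site, and many known elements lie further upstream. The windows with a match are shown 5′ to 3′ on the gene's strand with the matching bases in capitals. The KEAP1 window, chr19:10502722-10503021 on the minus strand, is the promoter of the inhibitor itself and held 2 matches, TGACACGGC starting at position -54 and, on the opposite strand, GCTTAGTCA at position -31, counted from the start of transcription.
KEAP1 window: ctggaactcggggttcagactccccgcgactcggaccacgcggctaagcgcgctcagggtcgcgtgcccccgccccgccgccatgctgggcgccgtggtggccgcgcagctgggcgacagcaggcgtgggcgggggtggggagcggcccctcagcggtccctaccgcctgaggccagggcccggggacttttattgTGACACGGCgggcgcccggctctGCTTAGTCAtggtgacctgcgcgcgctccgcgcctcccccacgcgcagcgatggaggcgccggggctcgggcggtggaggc

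TXNRD1 (gene ID 7296, chromosome 12 at 104215779 to 104350307) encodes the cytosolic selenoenzyme that reduces thioredoxin with NADPH. It had 527.9, 452.6 and 306.1 CPM in CPI-613 replicates 1 to 3, against 225.9, 249.6 and 241.2 CPM in Control replicates 1 to 3. Every CPI-613 library lay above every Control library, and the spread was much wider with CPI-613. TXNRD1 averaged 428.9 ± 112.8 CPM with CPI-613 and 238.9 ± 12 CPM in Control (SD, n = 3 each), which is 0.84 on the log2 scale (SE 0.23) and missed the threshold (edgeR adjusted p = 0.123). GC- and length-adjusted, the values drew together to 445.8, 439.9 and 429.6 CPM with CPI-613 and 207.1, 266.1 and 214.2 CPM in Control. This fold change of 0.94 (SE 0.13) passed (edgeR adjusted p = 0.00399, with 0.00399 to 0.509 over all alternatives), also without any 1 of the 6 libraries, at adjusted p of 0.00432 to 0.0323. In the authors' FPKM, which carry no TMM scaling, the groups overlapped, with 162.0, 124.1 and 75.0 FPKM with CPI-613 and 73.7, 75.6 and 76.4 FPKM in Control. NM_182729 took 70.3% to 74.8% of the estimated counts of its 7 transcripts with CPI-613 and 67.1% to 69.9% in Control.

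Both start windows of TXNRD1 held the core, and they are shown for that reason, like the KEAP1 window. The upstream window, chr12:104215529-104215828 on the plus strand, held TGACTTCGC at position -99 and, on the opposite strand, GCTCCGTCA at position -8. The window of the downstream start, chr12:104286782-104287081 on the plus strand, held GCTTTGTCA, a match on the opposite strand, at position -102.
TXNRD1 upstream window: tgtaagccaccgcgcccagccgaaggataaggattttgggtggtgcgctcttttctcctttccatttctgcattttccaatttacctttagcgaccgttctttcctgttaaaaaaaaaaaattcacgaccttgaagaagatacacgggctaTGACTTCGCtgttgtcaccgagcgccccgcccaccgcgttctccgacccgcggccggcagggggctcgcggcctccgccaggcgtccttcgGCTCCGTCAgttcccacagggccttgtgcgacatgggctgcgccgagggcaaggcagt
TXNRD1 downstream window: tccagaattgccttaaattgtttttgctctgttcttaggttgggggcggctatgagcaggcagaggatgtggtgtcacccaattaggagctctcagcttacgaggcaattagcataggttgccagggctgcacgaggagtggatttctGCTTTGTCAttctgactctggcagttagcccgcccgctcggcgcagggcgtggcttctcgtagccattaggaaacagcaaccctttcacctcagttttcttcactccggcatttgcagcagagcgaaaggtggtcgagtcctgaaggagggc

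SRXN1 (gene ID 140809, chromosome 20 at 646615 to 653200) encodes sulfiredoxin, which restores overoxidised peroxiredoxins. It had 57.1, 74.5 and 89.2 CPM with CPI-613 and 42.7, 57.5 and 44.0 CPM in Control, so that the lowest CPI-613 library sat just under the highest Control library. The difference of 0.61 on the log2 scale (SE 0.24) missed the threshold (edgeR adjusted p = 0.297). GC- and length-adjusted, SRXN1 had 66.3, 71.1 and 71.0 CPM with CPI-613 and 46.3, 54.9 and 48.2 CPM in Control, with no overlap. That fold change of 0.48 (SE 0.12) passed (edgeR adjusted p = 0.0414, with 0.0305 to 0.881 over all alternatives). With 1 library left out, it still passed in 2 of 6 adjusted fits, those without CPI-613 replicate 1 or Control replicate 2. SRXN1 has a single transcript in the table, so no splitting between isoforms enters its counts.

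**Figure D2:**
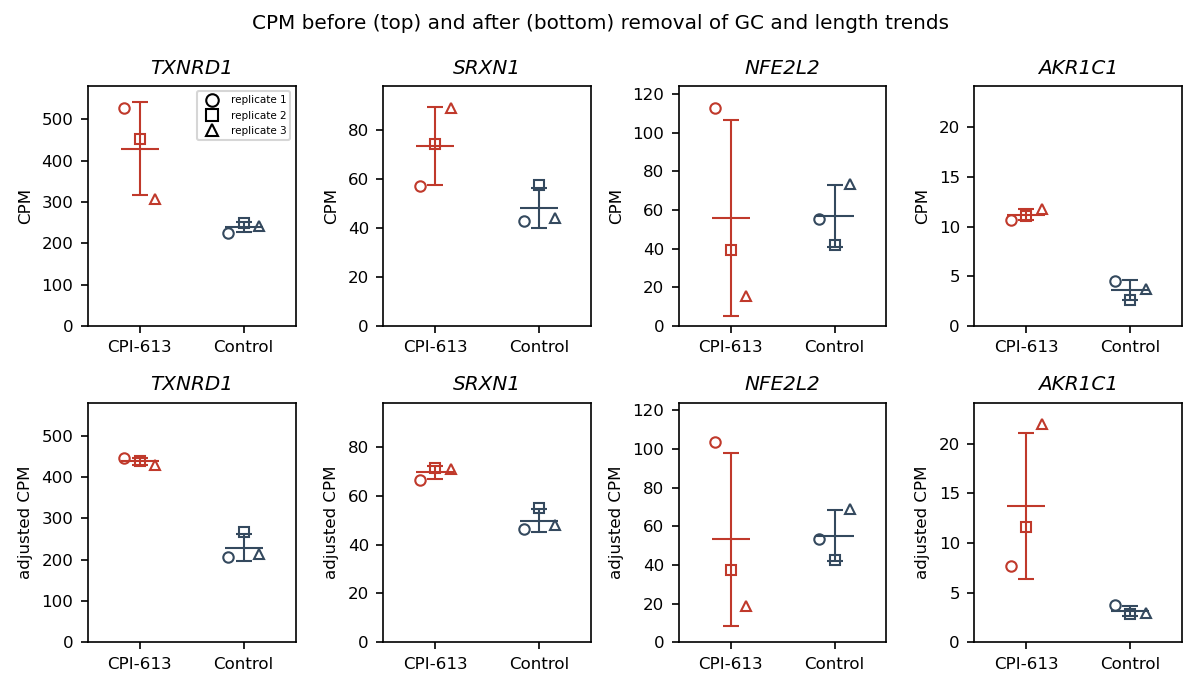
CPM of TXNRD1, SRXN1, NFE2L2 and AKR1C1 (vertical axes from 0) before (top) and after (bottom) the trends of each library on GC content and transcript length were removed, with CPI-613 left and Control right; open symbols are libraries and bars are mean ± SD of 3. The CPI-613 libraries of TXNRD1 closed up from 306.1 to 527.9 CPM to 429.6 to 445.8 CPM, those of NFE2L2 stayed apart, and those of AKR1C1 moved apart.

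NQO1 (gene ID 1728, chromosome 16 at 69709401 to 69726560) encodes the quinone reductase that is the usual readout of NRF2 activity. It had 102.8, 131.5 and 171.1 CPM in CPI-613 replicates 1 to 3, against 58.6, 92.7 and 64.5 CPM in Control replicates 1 to 3. All CPI-613 libraries lay above all Control libraries, with Control replicate 2 nearest to them. NQO1 averaged 135.1 ± 34.3 CPM with CPI-613 and 71.9 ± 18.2 CPM in Control (SD, n = 3 each), which is 0.91 on the log2 scale (SE 0.27) and missed the threshold (edgeR adjusted p = 0.153). The GC- and length-adjusted 0.98 (SE 0.31) did not pass either (edgeR adjusted p = 0.0852, with 0.021 to 0.597 over all alternatives). Without CPI-613 replicate 1 it passed, at an edgeR adjusted p of 0.0472.

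Transcripts of NQO1 took different shares in the groups, which is given with no test since estimated counts of overlapping transcripts are not independent. NM_000903 took 71.1% to 76.0% of the gene's estimated counts with CPI-613 and 64.4% to 68.4% in Control. NM_001025434 took 21.7% to 25.2% with CPI-613 and 27.4% to 30.2% in Control. The minor NM_001286137, with 7.42 to 12.45 estimated counts with CPI-613 and 15.91 to 25.71 in Control, took 0.515% to 0.716% with CPI-613 and 2.13% to 2.46% in Control. These 3 did not overlap between the groups, while the fourth transcript, NM_001025433, did, with 1.77% to 3.25% with CPI-613 and 2.08% to 4.05% in Control. Shares of 1 gene add up to the whole, so they are not separate observations. How often shares did not overlap among all transcripts was not counted.

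HMOX1 (gene ID 3162, chromosome 22 at 35381096 to 35394207) encodes the inducible heme oxygenase, which opens heme to biliverdin, iron and carbon monoxide and is repressed by BACH1. It had 9.06, 13.9 and 24.6 CPM with CPI-613 and 9.64, 5.67 and 10.9 CPM in Control. CPI-613 replicate 1 lay within the Control range and replicates 2 and 3 above it. The log2 fold change was 0.86 (SE 0.44; edgeR adjusted p = 0.463), and 0.58 (SE 0.32) when GC- and length-adjusted (edgeR adjusted p = 0.310, with 0.0926 to 0.893 over all alternatives). HMOX1 passed in none of these fits. Its counts, 127, 181 and 318 with CPI-613 and 123, 73 and 143 in Control, all belong to 1 transcript.

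OSGIN1 (gene ID 29948, chromosome 16 at 83953240 to 83966332) encodes oxidative stress-induced growth inhibitor 1. It had 15.8, 19.8 and 29.1 CPM with CPI-613 and 9.17, 15.2 and 10.0 CPM in Control. The groups were separated by a narrow gap between CPI-613 replicate 1 and Control replicate 2. The difference of 0.91 on the log2 scale (SE 0.33) missed the threshold (edgeR adjusted p = 0.259). GC- and length-adjusted, OSGIN1 had 20.4, 18.7 and 20.5 CPM with CPI-613 and 10.2, 14.0 and 11.4 CPM in Control, and the fold change of 0.74 (SE 0.17) passed (edgeR adjusted p = 0.0280, with 0.0224 to 0.833 over all alternatives). It no longer passed in the adjusted fits without CPI-613 replicate 2, Control replicate 1 or Control replicate 3.

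AKR1C1 (gene ID 1645, chromosome 10 at 4963415 to 4983283) encodes an aldo-keto reductase that acts on steroids and lipid aldehydes. It had 10.7, 11.1 and 11.8 CPM in CPI-613 replicates 1 to 3, against 4.55, 2.56 and 3.74 CPM in Control replicates 1 to 3. The groups were far apart relative to the spread within each. AKR1C1 rose by 1.63 (SE 0.29) on the log2 scale (edgeR adjusted p = 0.0338, with 5.62e-05 to 0.205 over all alternatives). The call ended without CPI-613 replicate 2 or without any 1 of the 3 Control libraries, at edgeR adjusted p of 0.171, 0.134, 0.0784 and 0.205, and with library size scaling only (0.0567). The GC- and length-adjusted rise was 2.08 (SE 0.39), but the CPI-613 libraries then spread to 7.70, 11.6 and 22.0 CPM, against 3.73, 2.85 and 2.92 CPM in Control. That adjusted call (edgeR adjusted p = 0.0143) ended without any 1 of the 3 Control libraries, at 0.0549 to 0.0746.

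The counts of AKR1C1 rest on how reads were shared among near-identical copies, so its level is uncertain. In GENCODE 29 its coding sequence of 969 bases was identical to that of AKR1C2 at 98.0% of aligned positions and to that of AKR1C3 at 91.4%. AKR1C2 had 1.35, 1.38 and 3.02 CPM with CPI-613 and 1.25, 2.10 and 2.44 CPM in Control, with overlap. AKR1C3, a prostaglandin and steroid reductase, had 2.85, 3.84 and 4.26 CPM with CPI-613 and 7.92, 5.98 and 12.8 CPM in Control, all CPI-613 libraries lying below all Control libraries. On the log2 scale the difference was -1.29 (SE 0.36) and missed the threshold (edgeR adjusted p = 0.133), while DESeq2 called it (adjusted p = 0.0263, with 0.0263 to 0.599 over all alternatives). The 3 copies together had 14.9, 16.3 and 19.1 CPM with CPI-613 and 13.7, 10.6 and 19.0 CPM in Control, ranges that overlapped. Within that sum AKR1C1 took 71.8%, 67.9% and 61.8% with CPI-613 and 33.1%, 24.1% and 19.7% in Control. In these CPM AKR1C3, the copy of lower identity, was the part of that sum that lay lower with CPI-613 in every library. GC- and length-adjusted, AKR1C3 overlapped, with 2.25, 4.10 and 7.11 CPM with CPI-613 and 6.77, 6.09 and 10.5 CPM in Control. That adjusted difference of -0.86 (SE 0.41) did not pass (edgeR adjusted p = 0.244). Whether reads moved between copies was not tested, nor was a sum of AKR1C1 and AKR1C2 alone.

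**Figure D3:**
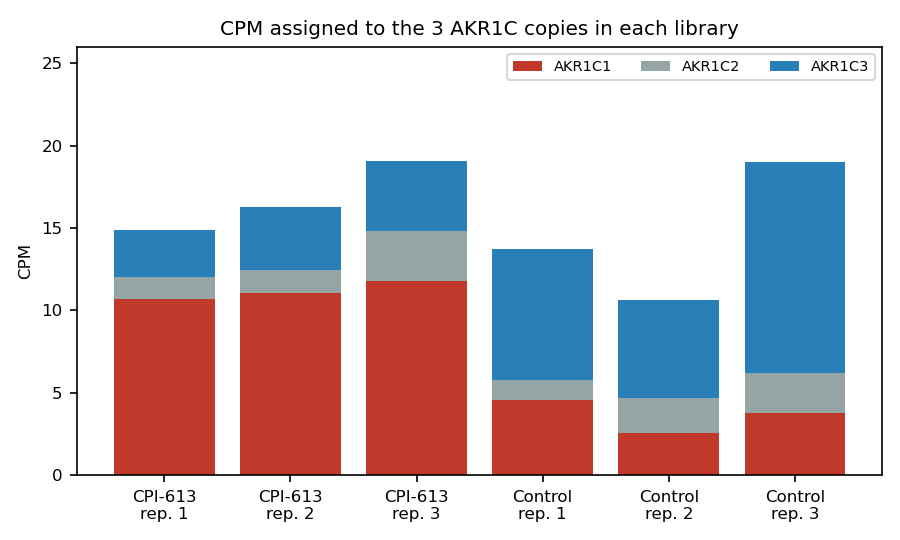
Stacked CPM of AKR1C1, AKR1C2 and AKR1C3 in each library (vertical axis from 0), with the 3 CPI-613 libraries left and the 3 Control libraries right. The stacks overlap in height, 14.9 to 19.1 CPM with CPI-613 and 10.6 to 19.0 CPM in Control, while AKR1C1 fills 61.8% to 71.8% of them with CPI-613 and 19.7% to 33.1% in Control.

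AKR1B10 (gene ID 57016, chromosome 7 at 134527567 to 134541412), a reductase of retinal and lipid aldehydes, was close to the detection limit and fell below the filter on low counts. It had 2, 1 and 2 counts with CPI-613 and 9, 6 and 13 counts in Control, with no overlap. The ratio of summed counts per library size was 0.173 (95% exact interval 0.0522 to 0.454, which covers counting error only). It entered 3 of the alternative fits, with an edgeR adjusted p of 0.0791 without the filter on low counts, 0.0747 without Control replicate 2 and 0.0223 without that library when GC- and length-adjusted, which called it lower. Its coding identity with AKR1C1 was 58.8%.

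**Figure D4:**
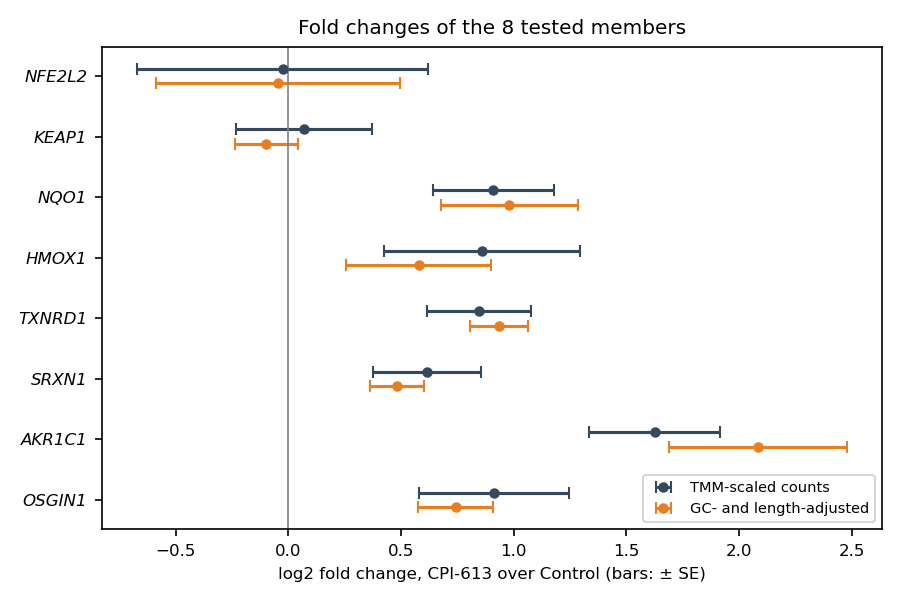
log2 fold change of CPI-613 over Control (horizontal axis) with ± SE for the 8 tested members, from TMM-scaled counts and after GC and length adjustment. NFE2L2 and KEAP1 lie near 0, 5 targets lie between 0.61 and 0.91 from TMM-scaled counts, and AKR1C1 lies highest at 1.63.

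Of the 8 tested members, 4 (NQO1, TXNRD1, AKR1C1 and OSGIN1) had every CPI-613 library above every Control library, and none had every one below. Over all tested genes these shares were 11.8% above and 9.17% below. GC- and length-adjusted, 4 members (TXNRD1, SRXN1, AKR1C1 and OSGIN1) were called higher and 0 lower, where 6.61% of all genes were called higher and 5.0% lower. With scaling by library size only, all genes had a median estimate of -0.17, and 46.9% of all calls were higher, against 61.0% with TMM scaling. Member estimates above 0 there were 1.42 (AKR1C1), 0.70 (NQO1), 0.61 (HMOX1), 0.68 (TXNRD1), 0.40 (SRXN1) and 0.70 (OSGIN1). Those below 0 were -0.133 (NFE2L2) and -0.155 (KEAP1). Within the CPI-613 group, TXNRD1 and NFE2L2, with GC contents of 44.8% and 45.6%, were highest in replicate 1 and lowest in replicate 3. KEAP1, HMOX1, OSGIN1 and SRXN1, at 53.6% to 63.4%, ran the other way, and so did NQO1 at 46.0% and, over a narrow range of CPM, AKR1C1 at 42.4%; the part of GC content in single genes was not tested.

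The wider pathway was taken as 62 further genes in 8 roles, of which 58 were tested. This list too was drawn up with earlier results of these data known. Called higher were 7 (NFE2L1, SQSTM1, MAFF, SESN2, CHAC1, SLC7A11 and ABCC3), 0 were called lower, and 51 did not pass. Over all tested genes 1.94% were called higher and 1.24% lower. The list was drawn by role, and the 7 include CHAC1, a target of ATF4 rather than NRF2, and SESN2, also an ATF4 target. Which factor acted on any of the 7 was not tested. The 58 estimates had a median of 0.22 on the log2 scale, against 0.02 for all tested genes. GC- and length-adjusted, 14 were higher and 2 lower, beside 6.61% and 5.0% of all genes. MGST1 was not analysed here, and GSTM3, UGT1A6 and SLC40A1 were too low to test. Every CPI-613 library lay above every Control library in 17 of the 58 tested genes and below in 5. Shares of such genes among all tested were 11.8% above and 9.17% below. The counts by role below stand beside shares over all tested genes. By edgeR, an unadjusted p under 0.05 was reached by 8.45% on the higher side and 5.93% on the lower. DESeq2 called 7.05% and limma-voom 3.27% in either direction.

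Among 12 regulators 3 rose and 0 fell by edgeR. NFE2L1, which encodes the relative of NRF2 that drives proteasome genes, had 817.8, 1086 and 1266 CPM with CPI-613 and 370.1, 398.8 and 407.5 CPM in Control, a rise of 1.43 (SE 0.21) on the log2 scale (edgeR adjusted p = 0.0179). MAFF, a small MAF partner, rose to 122.1, 138.6 and 180.7 CPM, against 54.1, 69.5 and 48.1 CPM in Control (edgeR adjusted p = 0.0283). SQSTM1, the autophagy receptor p62 that competes for KEAP1, rose to 1249, 1454 and 1863 CPM, against 479.6, 672.2 and 560.4 CPM in Control (edgeR adjusted p = 0.0256). In these 3 genes every CPI-613 library lay above every Control library. NFE2L3, a further relative of NRF2, lay the other way, with 30.8, 25.7 and 16.1 CPM with CPI-613 and 51.7, 40.5 and 48.3 CPM in Control and no overlap. Its difference of -0.95 on the log2 scale (SE 0.29) missed the threshold (edgeR adjusted p = 0.161, with 0.00567 to 0.586 over all alternatives), but it was called lower by DESeq2 and when GC- and length-adjusted. The calls of NFE2L1, MAFF and SQSTM1 ended without CPI-613 replicate 2, Control replicate 1 or Control replicate 3. That of NFE2L1 also ended without Control replicate 2. Those of SESN2, CHAC1 and ABCC3, described next, ended without any 1 of the same 3 libraries, at edgeR adjusted p of 0.0635 to 0.0808. Over all genes, 7 were called without CPI-613 replicate 2 and 0 without Control replicate 1 or Control replicate 3. In the GC- and length-adjusted fits without 1 library, added after seeing the data, NFE2L1, MAFF, SQSTM1, SESN2, CHAC1 and ABCC3 passed each time. Their edgeR adjusted p there was 0.000102 to 0.0132. Those adjusted fits called 606 to 2638 genes among all tested.

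**Figure D5:**
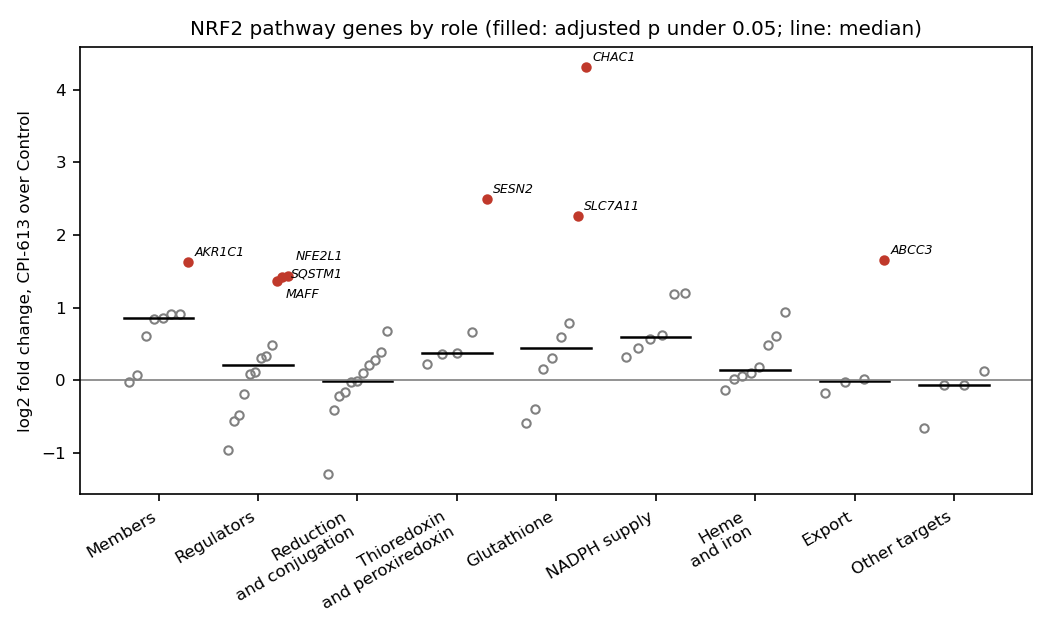
log2 fold change of CPI-613 over Control (vertical axis) for the tested members and for the 58 tested genes of the wider pathway by role; filled points passed edgeR's test across all genes and lines are medians. The 8 filled points, all above 0, are AKR1C1, NFE2L1, SQSTM1, MAFF, SESN2, CHAC1, SLC7A11 and ABCC3.

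Of 8 glutathione genes 2 rose; of the others, GSS on the higher side and GSR on the lower had an unadjusted p under 0.05. SLC7A11, the cystine importer, had 178.2, 85.9 and 48.2 CPM with CPI-613 and 22.0, 22.3 and 21.0 CPM in Control, a log2 fold change of 2.26 (SE 0.46) at the threshold (edgeR adjusted p = 0.0498, with 0.000123 to 0.240 over all alternatives). It missed with each other scaling (0.0606 to 0.0991). The call also ended without CPI-613 replicate 2 or without any 1 of the 3 Control libraries, at edgeR adjusted p of 0.163 to 0.240. GC- and length-adjusted, SLC7A11 had 100.5, 108.8 and 127.2 CPM with CPI-613, against 13.8 to 24.8 CPM in Control. That adjusted rise of 2.63 (SE 0.24) passed (edgeR adjusted p = 0.000903). The adjusted call held without any 1 library, at edgeR adjusted p of 0.000776 to 0.0107. CHAC1, which breaks glutathione down and is a target of ATF4 rather than NRF2, rose by 4.30 (SE 0.47). GPX4, the lipid hydroperoxide peroxidase, and GSR, the glutathione reductase, were not called, at log2 fold changes of 0.30 (SE 0.36) and -0.59 (SE 0.20), and in GSR all CPI-613 libraries (67.2, 86.1 and 102.6 CPM) lay below all Control libraries (127.8, 131.1 and 125.3 CPM). GCLC and GSS, enzymes of glutathione synthesis, passed when GC- and length-adjusted, at 0.69 (SE 0.16) and 0.64 (SE 0.10).

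SESN2 alone rose among 5 thioredoxin, peroxiredoxin and related genes. This stress sestrin, also an ATF4 target, had 231.2, 272.0 and 359.2 CPM with CPI-613 and 47.6, 63.0 and 42.9 CPM in Control (log2 fold change 2.49, SE 0.25; edgeR adjusted p = 0.0072). TXNIP, which binds and inhibits thioredoxin, was not called but had no overlap, with 290.8, 352.6 and 429.7 CPM with CPI-613 and 254.9, 180.7 and 242.0 CPM in Control (edgeR adjusted p = 0.214, unadjusted under 0.05). PRDX1 and PRDX6, the peroxiredoxins of highest CPM, measured 698.3 ± 193.7 and 402.7 ± 97.7 CPM with CPI-613 and 597.9 ± 92.8 and 312.7 ± 64.0 CPM in Control (SD, n = 3), and were not called. Of 11 tested genes of reduction and conjugation 0 were called by edgeR, DESeq2 called AKR1C3 lower and limma-voom called 0. An unadjusted p under 0.05 by edgeR was reached by 1 (NQO2) on the higher side and 1 (AKR1C3) on the lower. Over all tested genes these shares were 8.45% and 5.93%. GSTP1 and PTGR1, the most abundant by CPM, had log2 fold changes of -0.02 (SE 0.35) and -0.21 (SE 0.16).

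None of 6 genes of NADPH supply was called by edgeR, and limma-voom called 0. PGD and IDH1 were among those with an unadjusted p under 0.05 on the higher side, and PGD was among those DESeq2 called. PGD, phosphogluconate dehydrogenase, had 348.9, 491.6 and 648.2 CPM with CPI-613 and 189.1, 252.9 and 206.4 CPM in Control, with no overlap (log2 fold change 1.199, SE 0.26; edgeR adjusted p = 0.0661). GC- and length-adjusted, PGD, ME1 and IDH1, each a source of NADPH, were among those that passed, at log2 fold changes of 0.87 to 1.02. TKT, the transketolase, was not called, at 0.45 (SE 0.31).

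Of 8 tested heme and iron genes 0 were called by edgeR, DESeq2 or limma-voom, with FTL and FTH1 at an unadjusted p under 0.05 on the higher side. The ferritin chains, whose many pseudogenes make counts uncertain, had 1070 ± 388 (FTL) and 3834 ± 1140 CPM (FTH1) with CPI-613 and 559.9 ± 86.8 and 2521 ± 114 CPM in Control (SD, n = 3), with no overlap in either. FTL passed when GC- and length-adjusted, at 0.75 (SE 0.11; edgeR adjusted p = 0.00554, with 0.00554 to 0.611 over all alternatives). Among 4 export pumps ABCC3 rose to 200.1, 175.7 and 182.7 CPM, against 56.1, 66.6 and 54.6 CPM in Control (log2 fold change 1.66, SE 0.17; edgeR adjusted p = 0.0072). ABCC1 was not called, at -0.02 (SE 0.20). Among 4 other targets 0 were called by edgeR, with SLC6A6, the taurine importer, at an unadjusted p under 0.05 on the lower side; DESeq2 called SLC6A6 lower and limma-voom called 0. TRIM16 was not called, at -0.07 (SE 0.26).

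The genes most like HMOX1 in log2 CPM over the 6 libraries, among 9909 genes of sufficient level, were CD9, PGF and RAB38, with Pearson r of 0.988, 0.986 and 0.986. Those most like NQO1 were PRKAR1B, GRIPAP1 and DLST, with r of 0.998, 0.998 and 0.997. The libraries share depth and GC trends across all genes, and none of these 6 genes was called (edgeR adjusted p of 0.201 to 0.621).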

How the data were processed

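The authors deposited estimated counts per RefSeq transcript and a gene table with no named unit. The deposited gene values were taken as FPKM, since the median value per read over 1697 genes with 1 transcript was inversely proportional to the library total within 0.451%. STAR 2.5, HTSeq, CASAVA, DESeq2, edgeR 3.16.5 and the build hg38 appear, without roles, in the submitters' processing notes; strandedness is not given in the sources used here. In the counts, 27 transcripts, none of a member, held a date in place of a number and were left out. The estimated counts were summed per gene, rounded, filtered (filterByExpr, minimum count 10, total 15), TMM-scaled and tested with the quasi-likelihood test of edgeR 4.0.16, CPI-613 over Control, with Benjamini-Hochberg adjustment over all genes at 0.05. SE is the log2 fold change over the square root of F. The 53 genes without a symbol held 0.0163% of the counts.

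Members and lists were chosen with earlier results of these data known. The text names all 9 members and, per role, up to 5 called genes and the 2 of highest CPM; GCLC, GSS, ME1, IDH1, NQO2, NFE2L3, TXNIP, CD14 and the genes too low to test were named after their values were seen. Values of 1 gene of the wider list are not reported here. For each gene the longest coding transcript in GENCODE 29 gave its GC content and length (99.45% of tested genes matched), fitted with splines of 5 degrees of freedom each. A table of protein sequences was not used here, so copies were compared by coding bases. Alternatives were other scalings and filters, DESeq2 1.42.0, limma 3.58.1 (voom, and log2 of FPKM plus 1 or 0.1), a replicate block and leaving out each library; the adjusted fits without 1 library or with the block were added after seeing the data. No pair of libraries of the same group matched within counting noise. Chi-square per degree of freedom was 3.88 between Control replicates 1 and 3, and 34.6 to 202 for the other pairs. Depth was 11531949 to 15486514 counts per library. Counting error, taken as the square root of the mean count, was below the SD between libraries for 7 members in both groups. It exceeded the SD for AKR1C1 and AKR1B10 with CPI-613.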

Additional observations from a re-analysis of the deposited data

How the results depend on the processing

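The number of genes called, 403, became 893 with DESeq2, 191 with the replicate block, 1471 when GC- and length-adjusted and 889 when adjusted with the block. Leaving out 1 library gave 0 (without Control replicate 1 or 3; 1064 and 1118 genes at an unadjusted p under 0.05 by edgeR) to 905 (without CPI-613 replicate 1), and 606 to 2638 when adjusted. Members called, 1, became 0 with library size only, with the replicate block and from FPKM with pseudocount 0.1, 4 when adjusted and 2 when adjusted with the block; without 1 library there were 0 to 2, and 1 to 5 when adjusted. In the wider list 7 calls became 12 with DESeq2, 4 with the replicate block, 16 when adjusted and 14 when adjusted with the block; without 1 library 0 to 11, and 11 to 22 when adjusted. The block took the calls of AKR1C1, MAFF, SQSTM1 and SLC7A11 (edgeR adjusted p of 0.109, 0.0794, 0.0534 and 0.0598) and, when adjusted, those of SRXN1 and OSGIN1 (0.117 and 0.0869). Libraries with the same number did not all deviate together (r of 0.457, -0.096 and -0.608 for numbers 1 to 3), so the numbers were not taken as pairs.

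Signs turned mainly in estimates near 0, and the cause was not tested. KEAP1 (0.07) was -0.048 with upper quartile scaling, -0.155 with library size only, -0.097 when adjusted, -0.0997 adjusted with the block, and -0.178 and -0.181 from FPKM with pseudocounts 1 and 0.1. AKR1C2 was 0.57 when adjusted and 0.456 adjusted with the block. From FPKM, PRDX1 was -0.0171 with both pseudocounts, and GPX4 -0.0128 and -0.0131. Without 1 library, adjusted or not, the range was -1.05 to 0.423 for NFE2L2, -0.245 to 0.308 for KEAP1, -0.491 to 1.07 for AKR1C2, -0.481 to 0.262 for GSTP1, -0.00494 to 0.400 for PRDX1, -0.121 to 0.600 for GPX4, -0.154 to 0.116 for ABCC1 and -0.335 to 0.157 for TRIM16. NQO1, HMOX1, TXNRD1, SRXN1, AKR1C1 and OSGIN1 were above 0 in every alternative. Depth limits AKR1B10 and, with CPI-613, AKR1C1, whose counts varied by an SD of 4.16 where counting error alone gives 12.2.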
